A study of Mus musculus with 8 samples.

Results

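Tumour necrosis factor (TNF), its 2 receptors and the genes through which NF-κB is driven and restrained were followed in MOPC tumours growing in WT and Tlr3/7/9−/− (KO) mice. The set has 10 genes chosen by name, namely the ligand Tnf, the receptors Tnfrsf1a and Tnfrsf1b, the subunits Nfkb1, Nfkb2 and Relb, the inhibitors Nfkbia and Tnfaip3, and the TNF-inducible genes Tnfaip2 and Birc3. Of these, 9 were measured on a probe set with a single gene symbol, and all 9 passed the filter on low signal, among 12976 genes tested of 18194 measured. Nfkb1 was not analysed here.

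MOPC cells, a mouse oropharyngeal carcinoma line, were injected under the skin of C57BL/6 hosts that were either wild type (WT) or lacked Tlr3, Tlr7 and Tlr9 (KO). The genotype is the host's, so the injected cells are the same in every group and the deletion is that of the host mouse. RNA of whole tumour tissue was put on Affymetrix mouse arrays at day 4 and at day 6 after injection, with 2 arrays in each of 4 groups. The labels give no age, and nothing states that the samples of day 4 came from separate animals, so p-values measure the spread between these samples, which may be technical.

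TNF binds TNFR1, encoded by Tnfrsf1a and carried by most cells, and TNFR2, encoded by Tnfrsf1b and carried mainly by immune and endothelial cells. Both receptors activate NF-κB, a family of paired transcription factors that is held in the cytoplasm by IκB proteins and released when these are degraded. NF-κB then induces its own inhibitors, IκBα (Nfkbia) and the ubiquitin-editing enzyme A20 (Tnfaip3), which end the signal, along with p100 (Nfkb2) and RelB, the pair of the slower non-canonical arm. In tumours TNF is made mainly by myeloid and T cells.

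Promoters of these genes are known for NF-κB sites, and those of the members with the most matches are shown because they belong to the subunit and inhibitors whose signals follow. RefSeq sequence of the assembly GRCm38.p6 was at hand for 8 of the 10 members, with 11 start sites among them. The 250 bases before each start were searched on both strands for the 10-base NF-κB consensus motif, and 3 of the 8 members held it, against 1204 of 27025 genes (4.46%) and 3.9% of all 32851 promoters of this length. Nfkb2 had 3 matches before 1 of its 3 starts, at chr19:46304487-46304736 on the plus strand, beginning 39, 38 and 11 bases before the start, and the first of these overlaps its neighbour. Its other windows held 1 match each. Tnfaip3 had 2 at chr10:19015411-19015660 on the minus strand, 125 and 12 bases before the start. Nfkbia had 1 at chr12:55492648-55492897 on the minus strand, 29 bases before the start. Each sequence is printed 5′ to 3′ in the direction of the gene and ends at the base before its start, and capitals mark the matches.
Nfkb2: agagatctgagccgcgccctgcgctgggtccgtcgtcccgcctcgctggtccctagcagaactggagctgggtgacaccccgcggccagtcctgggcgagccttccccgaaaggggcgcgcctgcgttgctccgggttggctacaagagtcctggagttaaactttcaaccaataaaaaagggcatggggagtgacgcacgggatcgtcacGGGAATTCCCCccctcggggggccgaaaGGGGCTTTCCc
Tnfaip3: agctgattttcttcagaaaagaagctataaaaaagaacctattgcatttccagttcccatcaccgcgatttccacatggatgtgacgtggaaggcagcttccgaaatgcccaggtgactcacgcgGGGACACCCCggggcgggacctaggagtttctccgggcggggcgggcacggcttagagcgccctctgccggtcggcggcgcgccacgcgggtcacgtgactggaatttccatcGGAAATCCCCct
Nfkbia: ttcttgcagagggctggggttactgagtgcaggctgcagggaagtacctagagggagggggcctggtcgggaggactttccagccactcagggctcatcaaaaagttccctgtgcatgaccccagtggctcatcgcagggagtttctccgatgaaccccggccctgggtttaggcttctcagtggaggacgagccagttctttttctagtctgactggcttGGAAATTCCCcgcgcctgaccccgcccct
At least 2 matches were held by 0.493% of all promoters and at least 3 by 14 promoters. The windows of Tnf, Tnfrsf1a, Tnfrsf1b, Tnfaip2 and Birc3 did not hold these letters, which says nothing about sites elsewhere. A match is a description of the sequence, and binding was not measured.

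The values are linear signal intensities that the authors made with MAS5, scaled to a trimmed mean of 1000 on every array, and they were compared here as log2(signal + 16), a scale that understates the change of dim genes. A gene was called when limma's Benjamini-Hochberg adjusted p over all 12976 genes was under 0.05. The number of arrays limits the precision, since an exact permutation test of 2 against 2 arrays cannot give a two-sided p below 0.333. Tlr7 had signals of 382.9 to 673.4 in WT and 10.8 to 80.1 in KO tumours, and Tlr3 543.9 to 811.1 and 224 to 427.2. Tlr9 was below the filter, with 20.8 to 137.6 in WT and 84.2 to 128.5 in KO tumours. At day 6 both KO tumours lay above both WT tumours for Tlr9, so its signal does not show the deletion. All 7 carcinoma epithelium markers passed the filter. Transcripts of skeletal muscle stood apart on 3 arrays, with a summed signal of 8 markers of 132877 in WT day 4 replicate 2, 43788 in KO day 6 replicate 2 and 17507 in KO day 4 replicate 2, against 602 to 920 on the other arrays. KO day 6 replicate 2 also held the highest summed signal of cornified skin markers (24326, against 1590 to 3393 elsewhere). The fold changes of the 9 genes were recomputed without these 3 arrays. That leaves 1 array in each group but WT day 6, whose pair then gives the whole spread with 1 residual degree of freedom, so these values are printed with no test. Where a single array is left out, the lone array of its group is assumed to vary like the other groups.

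At day 6, on the probe sets used, the signal of Tnf was lower in both KO tumours than in both WT tumours. The signals of Nfkbia, Nfkb2, Tnfaip2 and Birc3 were higher in both KO tumours, but none of the 9 genes passed the test over all genes. Of all genes 0.0154% were called in this comparison, 16.1% lay higher without overlap and 20.9% lower without overlap. Of the 9 genes, 7 had positive and 2 negative log2 fold changes, with a median of 0.22 against −0.01 for all genes tested. At an unadjusted p under 0.05 limma gave 2 of the 9, Tnf and Tnfaip2, and 6.35% of all genes.

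At day 6 Tnf gave signals of 213.3 and 301.1 in WT and of 178.9 and 84.1 in KO tumours. The groups did not overlap, although the KO tumours differed more from each other than the nearest WT and KO tumours did. The log2 fold change was −0.95 (standard error, SE, 0.38, 95% interval −1.83 to −0.07, adjusted p = 0.77 from limma). It was −1.43 when KO day 6 replicate 1 was left out and −0.47 when KO day 6 replicate 2, the lowest of all 8 arrays and one with muscle transcripts, was left out.

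Tnf is made by macrophages and other immune cells, and in whole tissue fewer cells of a type and less RNA per cell cannot be told apart. The summed signal of 10 macrophage markers was 156002 to 157292 in WT and 128770 to 131590 in KO tumours of day 6, with 9 of the 10 negative and a median log2 fold change of −0.39. The 6 tested dendritic cell markers were all negative, with 1 called lower (Cd209a, a lectin of dendritic cells and macrophages, −4.26, adjusted p = 0.0228 from limma), and no marker of any list was at 0. The 6 tested neutrophil markers were all positive, with summed signals of 3660 to 4309 in WT and 6068 to 7972 in KO tumours. The 3 tested NK cell markers were all negative, with summed signals of 4 measured markers of 1593 to 1939 in WT and 860 to 1109 in KO tumours. Of the 4 tested T cell markers 3 were negative. The summed signals of 6 measured T cell markers overlapped (674 to 1272 in WT and 652 to 904 in KO tumours). The part of these cells in the signals of the TNF genes was not tested.

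The TNF receptors overlapped between the genotypes. Tnfrsf1a had signals of 5261.3 and 5577.7 in WT and 5930.9 and 5497.6 in KO tumours of day 6, a log2 fold change of 0.08 with a 95% interval of −0.21 to 0.36. Tnfrsf1b had 1967 and 2416.3 in WT and 2159.8 and 1893.2 in KO tumours, a log2 fold change of −0.11 with an interval of −0.52 to 0.31. A dimmer probe set of Tnfrsf1b gave −0.32 (SE 0.24), also with overlap. Of the 9 genes Tnfrsf1a had the smallest range, 0.31 on the log2 scale across all 8 arrays.

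Among the inhibitors, Nfkbia had signals of 14688.2 and 20113.7 in WT and 22178.7 and 21763.1 in KO tumours of day 6. Both KO tumours lay above both WT tumours, but the WT tumours lay far apart, and the log2 fold change of 0.35 (SE 0.25) did not pass (adjusted p = 0.858 from limma) and was 0.13 without WT day 6 replicate 1. On the other 4 probe sets of Nfkbia the genotypes overlapped, with log2 fold changes of 0.08 to 0.23. Tnfaip3 had 1103.1 and 1753.2 in WT and 1859.1 and 1421.4 in KO tumours, which overlapped. Its log2 fold change was 0.22 (SE 0.25), and a dimmer probe set of the same gene gave −0.63 (SE 0.26) with both KO tumours below both WT tumours, so the probe sets of Tnfaip3 disagree in direction.

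The subunit gene Nfkb2 had signals of 1497.1 and 1324.1 in WT and 1760.4 and 1667.7 in KO tumours of day 6. The groups were apart, with a log2 fold change of 0.28 (SE 0.25, adjusted p = 0.882 from limma). A second, dimmer probe set gave −0.06 (SE 0.19) with both KO tumours below both WT tumours, so the probe sets of Nfkb2 disagree in direction. Relb had 1085.1 and 1000.3 in WT and 1021.8 and 1236.1 in KO tumours, which overlapped, with a log2 fold change of 0.11 and an interval of −0.41 to 0.63.

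Tnfaip2, a TNF-induced gene of a protein that shapes membrane protrusions, had signals of 6233.6 and 5543 in WT and 8250.4 and 7559.5 in KO tumours of day 6. The KO tumours were the brightest of all 8 arrays, and the log2 fold change was 0.43 (SE 0.15, 95% interval 0.09 to 0.76, adjusted p = 0.76 from limma). Birc3, which encodes cIAP2, a ubiquitin ligase of the TNF receptor complex that protects from cell death, had 1609.9 and 1685 in WT and 2700.7 and 1804.5 in KO tumours. The groups were apart, but the KO tumours spread widely and the log2 fold change was 0.42 (SE 0.27, adjusted p = 0.854 from limma). It was 0.13 when replicate 1 of the KO tumours of day 6 was left out and 0.71 when replicate 2 was.

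**Figure D1:**
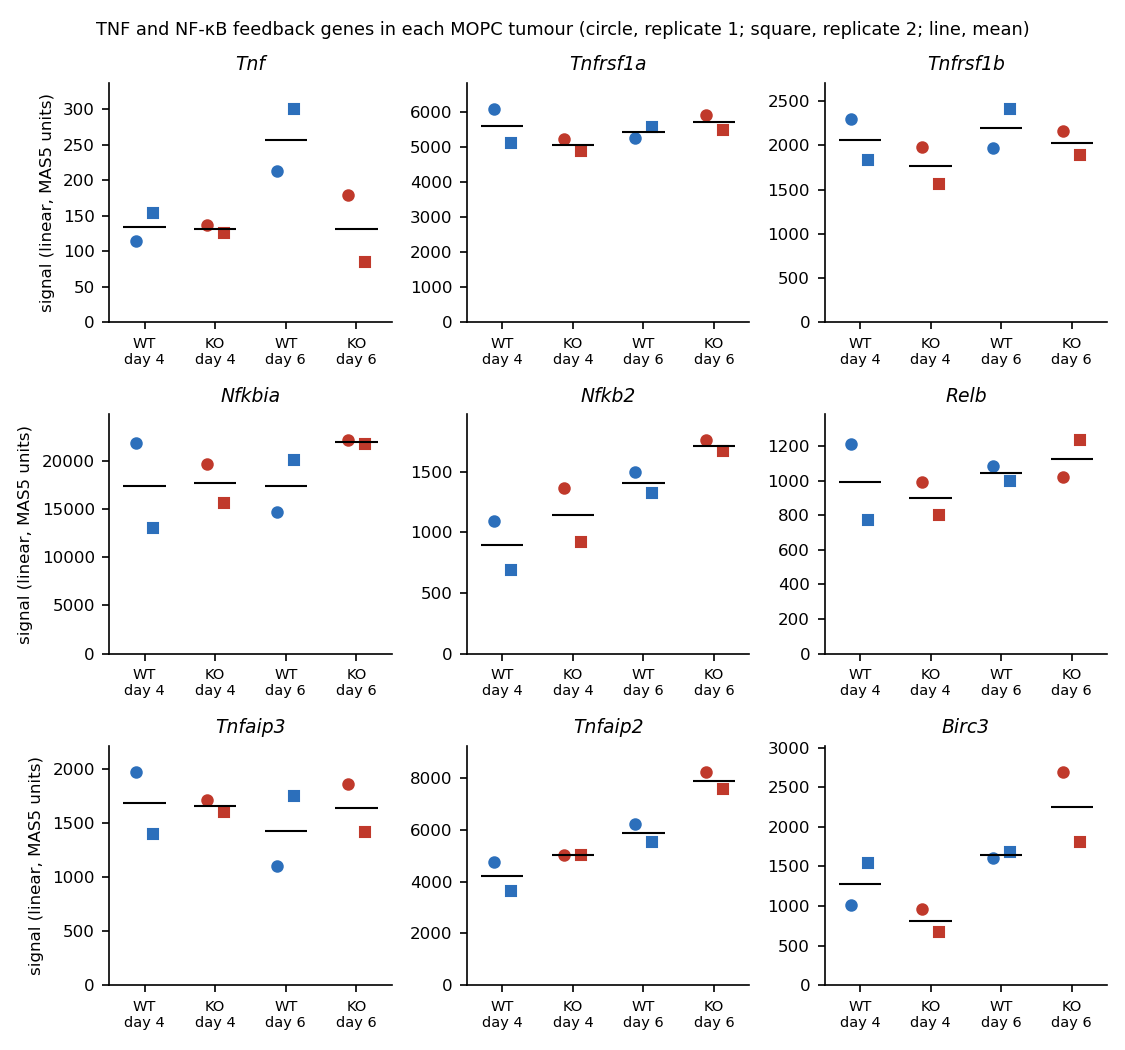
Linear MAS5 signal (vertical axis, from 0) of the 9 genes in the 8 tumours, in blue for WT and red for KO, by group on the horizontal axis. Circles are replicate 1, squares replicate 2 and lines the group means. Tnf peaked in WT tumours of day 6 (213.3 and 301.1), while Tnfaip2 and Birc3 peaked in KO tumours of day 6.

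At day 4, on the probe sets used, Tnfaip2 and Birc3 of the 9 genes did not overlap between KO and WT tumours. Tnfaip2 was higher and Birc3 lower in KO, and the other 7 overlapped. None of the 9 passed the test, and 0.0154% of all genes did. Of all genes 19.6% lay higher and 16.8% lower without overlap. At an unadjusted p under 0.05 limma gave 1 of the 9, Birc3, and 7.11% of all genes.

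Birc3 had signals of 1010.3 and 1550.3 in WT and 958.7 and 665.3 in KO tumours of day 4. The KO tumours were the 2 lowest of all 8, with a log2 fold change of −0.64 (SE 0.27, 95% interval −1.25 to −0.02, adjusted p = 0.691 from limma). It was −0.33 without WT day 4 replicate 2, the brighter WT array, and −0.38 without KO day 4 replicate 2, the lowest array. Both are among the 3 that held muscle transcripts, and without these it was −0.07.

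Tnfaip2 had signals of 4764.4 and 3627.6 in WT and 5009.8 and 5012.7 in KO tumours of day 4, and a log2 fold change of 0.27 (SE 0.15, adjusted p = 0.799 from limma). Without WT day 4 replicate 2 it was 0.07. On the probe set used, Tnfaip2 was the one of the 9 genes that lay higher in KO without overlap at both days. The share of all genes that did so was not counted. On its other probe sets the genotypes overlapped at day 4 (0.16 and −0.24), and KO lay higher without overlap at day 6 (0.37 and 1.90). Over both days together the probe set used gave 0.35 (SE 0.10, 95% interval 0.11 to 0.58, adjusted p = 0.435 from limma). Over both days 0.0308% of all genes and none of the 9 were called, and 8.69% of all genes and 1 of the 9, Tnfaip2, had an unadjusted p under 0.05.

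Tnf at day 4 had signals of 113.8 and 154.2 in WT and 136.2 and 125.5 in KO tumours. The KO tumours lay between the WT tumours, with a log2 fold change of −0.02 and an interval of −0.90 to 0.86. The interval is wide, and its lower end comes near the −0.95 of day 6 without reaching it. The macrophage markers again had lower summed signals in KO tumours, 153340 to 175632 in WT and 115781 to 123449 in KO tumours of day 4 and 9 of 10 negative.

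The remaining genes overlapped at day 4 on the probe sets used. Tnfrsf1a had a log2 fold change of −0.14, Tnfrsf1b −0.22, Nfkbia 0.06, Nfkb2 0.36, Relb −0.11 and Tnfaip3 −0.01, each with a SE of 0.12 to 0.25. A dimmer probe set of Tnfrsf1b gave −0.44 (SE 0.24), with both KO tumours below both WT tumours. WT day 4 replicate 2, the array with the most muscle transcripts, was the lowest of all 8 for Nfkbia (13044.5), Nfkb2 (689.8), Relb (770.8) and Tnfaip2 (3627.6). Its partner in the WT group had 21840.3, 1095.3, 1214.3 and 4764.4 for the same genes, so the WT tumours of day 4 spread more than the KO tumours did for Nfkbia, Relb and Tnfaip2.

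From day 4 to day 6, on the probe sets used, Birc3 and Tnfaip2 rose in KO tumours. None of the 9 genes passed the test in WT tumours. Of all genes 3.71% were called higher in KO tumours of day 6 than of day 4 (6.23% in either direction) and 4.16% in WT tumours (5.83% in either direction). Birc3 went from 958.7 and 665.3 to 2700.7 and 1804.5 in KO tumours, a log2 fold change of 1.45 (SE 0.27, 95% interval 0.83 to 2.06, adjusted p = 0.0271 from limma), or 2.73-fold. Tnfaip2 went from 5009.8 and 5012.7 to 8250.4 and 7559.5, a log2 fold change of 0.65 (SE 0.15, 95% interval 0.32 to 0.99, adjusted p = 0.0408 from limma), or 1.57-fold.

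Both calls depended on single arrays of the KO groups. Leaving out KO day 6 replicate 1, KO day 4 replicate 1 or KO day 4 replicate 2 ended both calls (Birc3 adjusted p = 0.106, 0.114 and 0.214, and Tnfaip2 0.15, 0.193 and 0.234), and leaving out KO day 6 replicate 2 ended that of Tnfaip2 (0.13). The log2 fold changes then lay between 1.16 and 1.74 for Birc3 and between 0.59 and 0.72 for Tnfaip2, while the calls over all genes in this comparison went from 809 to 159, 3, 5 and 148 on leaving out these arrays in turn. Without the 3 arrays with muscle transcripts, 1 array against 1, the values were 1.48 for Birc3 and 0.72 for Tnfaip2. A second, dimmer probe set of Birc3 gave 0.55 (SE 0.77) with overlap between the days, and a second one of Tnfaip2 gave 0.64 (SE 0.15). The dimmest probe set of Tnfaip2 gave 0.19 (SE 0.48), also with overlap between the days. The probe set used for Tnfaip2 is of the kind that Affymetrix marks as sharing probes with other sequences, and the second one is not.

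In WT tumours the same genes, on the probe sets used, were higher at day 6 without overlap and did not pass. The test of the difference between the genotypes in this course did not pass either, with 0.16 for Tnfaip2 and 1.06 for Birc3 (adjusted p = 0.995 for each from limma). The log2 fold change was for Tnfaip2 0.50 (SE 0.15, adjusted p = 0.0779 from limma) and Birc3 0.39 (SE 0.27, adjusted p = 0.403). The dimmest probe set of Tnfaip2 gave −1.94 (SE 0.48) in WT tumours, lower at day 6 without overlap. Its remaining probe set gave 0.43 (SE 0.15), higher without overlap. The dimmer probe set of Birc3 gave −0.36 (SE 0.77) in WT tumours, with overlap between the days. Nfkb2 had 0.69 in WT (SE 0.25, adjusted p = 0.131) and 0.61 in KO tumours (SE 0.25, adjusted p = 0.168), without overlap between the days in either genotype. Nfkb2 and Tnfaip2 were the 2 of the 9 genes with an unadjusted p under 0.05 in WT tumours, where 25.6% of all genes had one. In KO tumours Nfkb2, Tnfaip2 and Birc3 had one, 3 of the 9, against 26.1% of all genes.

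Tnf had a log2 fold change between the days of 0.86 in WT tumours (SE 0.38, 95% interval −0.02 to 1.74, adjusted p = 0.204 from limma) and −0.07 in KO tumours (SE 0.38, adjusted p = 0.93). In WT both tumours of day 6 lay above both of day 4, and in KO the tumours of day 6, at 178.9 and 84.1, lay on either side of those of day 4. The difference between these changes was −0.93 (95% interval −2.17 to 0.31, adjusted p = 0.995), so it was not shown that the genotypes differ in their course.

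Over the 9 genes, on the probe sets used, 4 (Tnf, Nfkb2, Tnfaip2 and Birc3) lay higher at day 6 without overlap in WT tumours. In KO tumours 6 did (Tnfrsf1a, Nfkbia, Nfkb2, Relb, Tnfaip2 and Birc3). Of all genes 29.1% lay higher without overlap in WT and 30.7% in KO tumours. The median log2 fold change of the 9 was 0.10 in WT and 0.32 in KO tumours, against 0.01 and 0.00 for all genes. With each array centred on its median, the median of all genes was 0.20 in WT and 0.17 in KO tumours, 1623 of 1784 called genes were higher in WT and 1131 of 1342 in KO tumours, in place of 540 of 756 and 482 of 809, and Tnfaip2 was called in WT (0.68, adjusted p = 0.0458).

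The days differed in more than time. Xist, expressed from the inactive X chromosome of females, had signals of 44.6 to 142.1 on the arrays of day 4 and 5579.1 to 7121 on those of day 6, and of 12 circadian clock genes 6 were called lower at day 6 in WT and 3 in KO tumours. Sex and hour were inferred here from these transcripts, and whether the clock genes changed for another reason was not tested. Day, sex of the host and any difference in hour of sampling cannot be told apart in a comparison of day 6 with day 4.

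**Figure D2:**
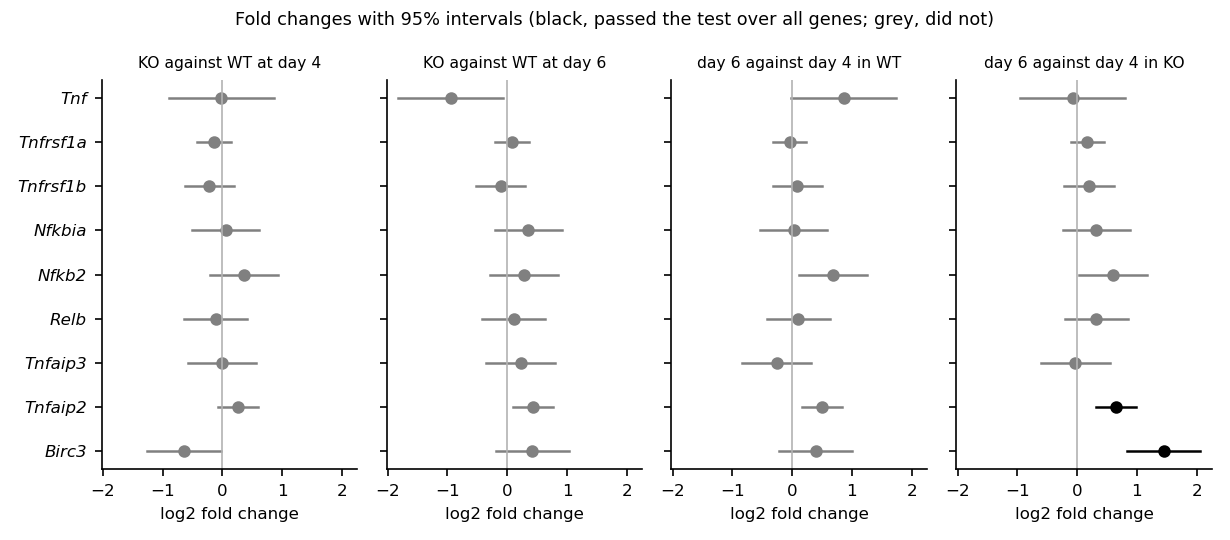
Log2 fold changes (horizontal axis) of the 9 genes in 4 comparisons, with points for the estimates, bars for 95% intervals from limma, and black for genes called over all 12976 genes. Birc3 (1.45) and Tnfaip2 (0.65) between the days in KO tumours are the 2 black points.

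Birc3 had the widest range of log2 signal of the 9 genes over the 8 arrays, wider than 92.8% of genes tested, followed by Tnf with a range of 1.66 (88.9%), Nfkb2 at 1.33 (81.4%) and Tnfaip2 at 1.18 (76.2%). Tnfrsf1a had the narrowest, wider than 6.8% of genes. Its receptor partner Tnfrsf1b spanned 0.62, Relb 0.67, Nfkbia 0.77 and Tnfaip3 0.83. Birc3, Tnf, Nfkb2 and Tnfaip2 thus varied more between tumours than the receptors did, while Relb, Nfkbia and Tnfaip3 lay nearer to Tnfrsf1b. Tnf was also the dimmest of the 9 genes (mean signal 163.4), and the part of noise in its range was not tested.

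On the probe sets used, the groups of Birc3 and of Tnfaip2 did not overlap at any step of their order. The share of all genes with such an order was not counted. On other probe sets the genotypes overlapped for Birc3 at day 6 and for Tnfaip2 at day 4. Birc3 ran from KO day 4 (812 ± 207, SD, n = 2) over WT day 4 (1280 ± 382) and WT day 6 (1647 ± 53.1) to KO day 6 (2253 ± 634). Tnfaip2 ran from WT day 4 (4196 ± 804, SD, n = 2) over KO day 4 (5011 ± 2.05) and WT day 6 (5888 ± 488) to KO day 6 (7905 ± 489). For Nfkb2, on the probe set used, the lowest 3 groups overlapped as neighbours and KO day 6 lay above them (1714 ± 65.5). For Tnf the lowest 3 overlapped and WT day 6 lay above them (257.2 ± 62.1). For Tnfrsf1b, Relb and Tnfaip3, on the probe sets used, every pair of neighbouring groups overlapped.

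Some of the variation ran along arrays. KO day 6 replicate 1 was the highest of all 8 for Nfkbia, Nfkb2, Tnfaip2 and Birc3, and KO day 4 replicate 2 the lowest for Tnfrsf1a, Tnfrsf1b and Birc3. The other KO tumour of day 6 was the lowest for Tnf and the highest for Relb. Within KO groups replicate 1 was above replicate 2 for 8 of 9 genes at each day, and in WT groups for 7 of 9 at day 4 and 3 of 9 at day 6.

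**Figure D3:**
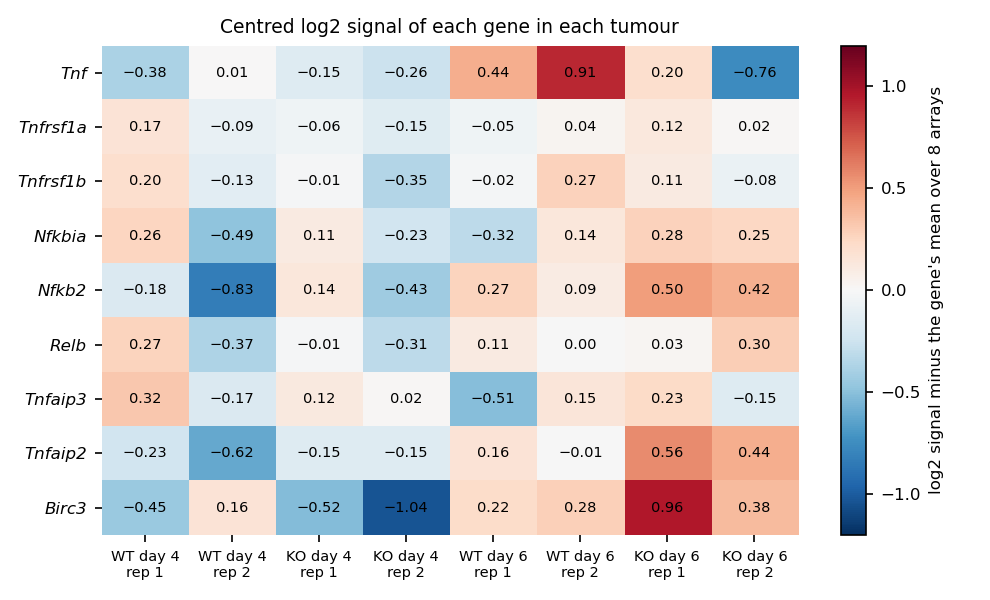
Log2(signal + 16) of each gene (rows) in each tumour (columns) minus the mean of the gene over 8 arrays, as colour and printed value. Birc3 ranged from −1.04 in KO day 4 replicate 2 to 0.96 in KO day 6 replicate 1, and Tnf from −0.76 in KO day 6 replicate 2 to 0.91 in WT day 6 replicate 2, while the receptors stayed between −0.35 and 0.27.

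The effect of the host genotype on Birc3 lay in opposite directions at the 2 days, −0.64 at day 4 and 0.42 at day 6. The groups overlapped at neither day, and the share of all genes that show this was not counted. The difference of these effects was 1.06 (SE 0.38, 95% interval 0.19 to 1.93), and did not pass over all genes (adjusted p = 0.995 from limma). Without the 3 arrays with muscle transcripts it was 0.78. In this test 0% of the 12976 genes were called and 568 (4.38%) had an unadjusted p under 0.05, Birc3 being the 1 of the 9. A dimmer probe set of Birc3 gave −1.22 at day 4 and −0.31 at day 6 (SE 0.77 for each), with overlap between the genotypes at day 6.

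For the 3 genes with the widest range, the tested genes whose centred log2 signals were nearest over the 8 arrays were sought. Those nearest to Birc3 were Hk3, a hexokinase of myeloid cells, Parp14, an ADP-ribosyltransferase, and Gm9706, each at a root mean square difference of 0.18, where the SD of Birc3 was 0.59. Those nearest to Tnf (SD 0.48) were Zkscan4 at 0.18, Wfdc6a at 0.21 and Nr4a3, an immediate early nuclear receptor, at 0.23. Those nearest to Nfkb2 (SD 0.42) were Bcl6b at 0.10, and Nemp1 and Znhit6 at 0.13. Each was among the nearest 3 of 12975 genes and shares the arrays with the gene it was set against.

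Tnf lies between Ltb and Lta on chromosome 17, and Birc3 beside its paralog Birc2 on chromosome 9, by RefSeq on GRCm38.p6. Ltb, which encodes lymphotoxin β, had a log2 fold change of 0.07 between KO and WT tumours at day 6, where that of Tnf was −0.95, and Lta was below the filter. Birc2, which encodes cIAP1, had 0.14 between the days in KO tumours (adjusted p = 0.654 from limma), where that of Birc3 was 1.45. Whether neighbours differ from each other was not tested.

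The other genes of the pathway were taken from 6 lists. In KO against WT tumours none of their 71 tested genes passed over all genes at either day, and 3 at day 6 and 7 at day 4 had an unadjusted p under 0.05, against 6.35% and 7.11% of all genes. Among 19 tested NF-κB target genes the smallest p-values at day 6 were those of Il6, an inflammatory cytokine, with signals of 845.7 and 699.9 in WT and 2123.8 and 1299.4 in KO tumours (log2 fold change 1.09, adjusted p = 0.711 from limma), and of Irf1, an interferon-induced transcription factor (0.83, adjusted p = 0.742). The median of these targets was 0.27 at day 6 and −0.09 at day 4, and that of the other lists lay between −0.05 and 0.09 at day 6. At day 4 the TNF family members Tnfrsf11a, the receptor RANK, and Tnfsf14, the ligand LIGHT, had −1.05 and −1.86 (adjusted p = 0.466 and 0.538 from limma).

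Between the days the target genes were called most often. In WT tumours 3 of the 19 rose, where 4.16% of all genes were called higher, namely Csf2, a myeloid growth factor (2.03, adjusted p = 0.045), Vcam1, an adhesion molecule of endothelium (1.43, adjusted p = 0.0197), and Irf1 (1.24, adjusted p = 0.028 from limma). In KO tumours 7 of the 19 rose, where 3.71% of all genes were called higher, among them the chemokine Cxcl10 (3.61), Csf2 (2.33), Vcam1 (1.23) and the mitochondrial superoxide dismutase Sod2 (0.85). Csf2 had signals of 18.7 to 66.1 at day 4, all under the limit of the filter (6.56 on the log2 scale), so it was tested through its level at day 6. Its log2 fold change ran from 2.39 with a pseudocount of 1 to 1.41 with one of 64 in WT tumours, where the call was lost with a pseudocount of 1 (adjusted p = 0.0521 from limma), and was 2.92 with a pseudocount of 1 in KO tumours, where both kept the call. Cxcl10 went from 256.9 and 232.1 to 7055.7 and 1408.9, so the KO tumours of day 6 lay far apart. Without KO day 4 replicate 1 or KO day 4 replicate 2 none of the 19 was called in either genotype. The median of the list was 0.33 in WT and 0.85 in KO tumours. The limits on sex and hour between the days hold for the lists as for the members.

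Of 7 other subunits and IκB proteins, Nfkbie, the inhibitor IκBε, rose in WT (1.07, adjusted p = 0.0265 from limma) and in KO tumours (0.85, adjusted p = 0.0464), and Bcl3, a nuclear IκB protein, in KO tumours (1.17, adjusted p = 0.0391). Of 9 tested genes of related TNF family members, Ltb rose in both genotypes (1.39 in WT, 1.45 in KO) and Tnfsf14 in KO tumours (2.30, adjusted p = 0.0483), where its signals of day 4, 8.2 and 68, were under the limit of the filter. Of 18 measured genes of the receptor complex and the IKK kinases, Casp8, the initiator of death receptor apoptosis, rose in KO tumours (0.51, adjusted p = 0.0468). Of 8 genes of TNF shedding and mRNA decay, Rhbdf2, a partner of the TNF-shedding protease, rose in KO tumours (0.83, adjusted p = 0.0488), and of 10 deubiquitinases and other brakes none passed in any comparison. No gene of the 6 lists fell between the days with all arrays. Of the 71 genes, 5 were called between the days in WT and 13 in KO tumours with all arrays, against 5.83% and 6.23% of all genes, and 0 in either without KO day 4 replicate 1 or without KO day 4 replicate 2. Ripk1, Traf3 and Chuk were not analysed here.

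**Figure D4:**
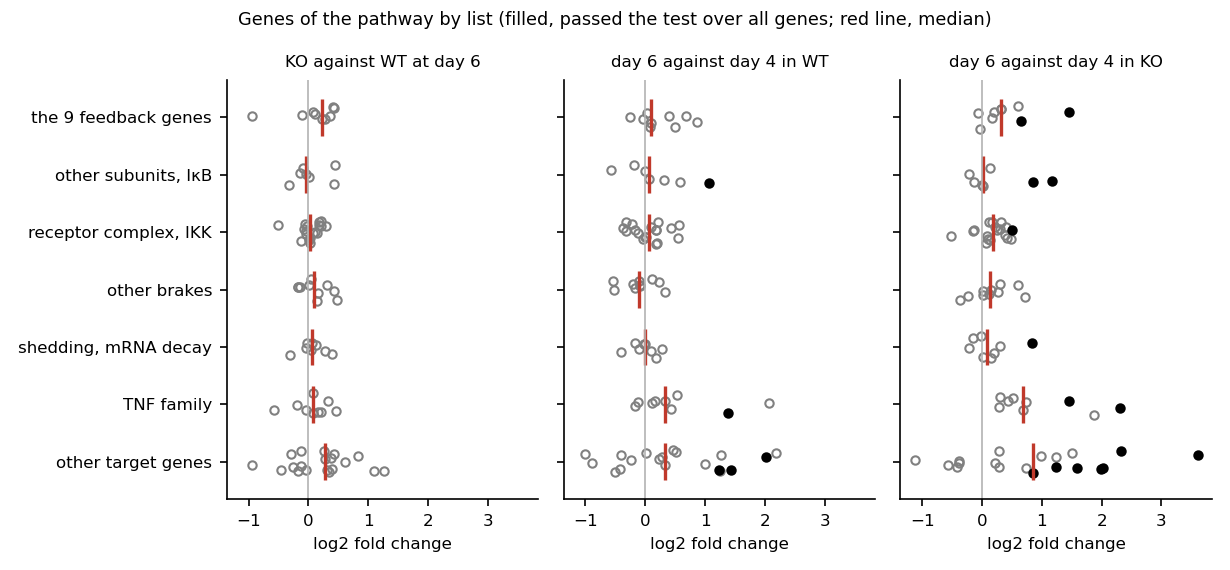
Log2 fold changes (horizontal axis) of each tested gene of the 9 members and of 6 lists of other pathway genes (rows), in KO against WT tumours at day 6 and between the days in each genotype. Filled points were called by limma, and red lines are medians. The column of KO against WT has no filled point, and the NF-κB target genes have 3 in WT and 7 in KO tumours between the days.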

How the data were processed

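RNA of MOPC tumours was measured on 8 Affymetrix MG-430 2.0 arrays, 2 for each host genotype and day, as the labels give them. The authors deposited 1 linear signal intensity per probe set. The submitters' notes name MAS5, and no version or chip-level settings are given in the sources used here. Of 45101 probe sets, 34958 had 1 gene symbol and were used. For each of 18194 genes the probe set with the brightest mean on the log2 scale was taken, and the 12976 genes that reached the 40th percentile entered the test. The fit was made with limma 3.58.1 (R 4.3.3) on log2(signal + 16) in 4 groups, with a trend and 4 residual degrees of freedom. The members and gene lists, and the rule that named at most 4 genes of a list, were chosen with earlier results of these data known. Alternatives were quantile normalization, median centring, pseudocounts of 1 and 64, no filter and a 60th percentile filter, the mean of all probe sets, the compared groups alone, no trend, a replicate block, the methods' t-test and leaving out arrays. On simulated data of KO against WT at day 6 50% of genes with a planted log2 change of 1 were found and 86% of those with 2, among 12976 genes. Changes of 1 to 4 were planted together, with normal noise drawn for each gene alone. Many large changes ease the adjusted threshold, and 2 genes were called in the data, so these shares may be too high for the data. Array scaling assumes like total signal, so a shift of most genes would not be seen.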

Additional observations from a re-analysis of the deposited data

Results flagged for a closer look

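The effect of the host genotype on Birc3 differed between the days by 1.06 on the log2 scale, since both KO tumours lay above both WT tumours at day 6 and below both at day 4. The test of that difference gave, over all genes, an adjusted p = 0.995 from limma. The difference lay between 0.75 and 1.36 when each array in turn was left out, and was 0.78 without the 3 arrays with muscle transcripts. A dimmer probe set of Birc3 was lower in KO at both days, with −1.22 at day 4 and −0.31 at day 6. Its SE was 0.77 for each, and the genotypes overlapped at day 6. The share of all genes with groups apart in opposite directions was not counted.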

How the results depend on the processing

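In 807 recomputed log2 fold changes of the 9 genes, 747 kept their direction and side of the threshold. Of the rest, 17 lost a call, 2 gained one and 41 turned in sign. No alternative called any of the 9 in KO against WT tumours or in the difference of the KO effects. Between the days in KO tumours, 2 of the 9 were called, but 1 without the filter (Birc3). With the replicate block 1 was called (Birc3, adjusted p = 0.0481 from limma, and Tnfaip2 0.0518). With the mean of all probe sets, without the trend and with the methods' t-test 0 were called. Leaving out the arrays with muscle transcripts was chosen after seeing the data. It leaves 1 array in each group but WT day 6 and so bears on no call, although the counts of recomputed values in this section include it. Leaving out 1 array gave 0 to 2. In WT tumours the count of 0 became 1 with median centring, and 0 to 1 when 1 array was left out. Deviations of replicate 1 from its group mean correlated at −0.12 to 0.274 between groups. The correlations between KO day 6, WT day 4 and KO day 4, whose replicate 2 held muscle transcripts, were 0.215 to 0.274. Whether the replicate numbers pair the samples cannot be told from these values.

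Signs turned only for values that were not called, and the cause was not tested. With quantile normalization Tnf was 0.06 at day 4 and 0.11 between the days in KO. With median centring Tnf was 0.06 and 0.09 there, Tnfaip3 0.07 and 0.14, and Tnfrsf1a 0.14 between the days in WT. With the mean of all probe sets Tnfaip3 was −0.20 at day 6, Nfkbia 0.00 at day 4, and between the days in WT Tnfrsf1b was −0.02, Nfkbia −0.04 and Tnfaip2 −0.34. Without the arrays with muscle transcripts Relb was −0.03 at day 6, Tnf 0.23 and Nfkbia −0.15 at day 4, Tnfrsf1b −0.08, Nfkbia −0.35 and Relb −0.22 between the days in WT, and Tnf 0.36 and Tnfaip3 0.11 between the days in KO. When 1 array was left out, the values ran at day 6 from −0.26 to 0.04 for Tnfrsf1b, −0.03 to 0.24 for Relb and −0.11 to 0.55 for Tnfaip3. At day 4 they ran from −0.21 to 0.18 for Tnf, −0.31 to 0.43 for Nfkbia, −0.43 to 0.21 for Relb and −0.25 to 0.24 for Tnfaip3. Between the days in WT they ran from −0.17 to 0.08 for Tnfrsf1a, −0.08 to 0.25 for Tnfrsf1b, −0.35 to 0.40 for Nfkbia, −0.22 to 0.43 for Relb and −0.59 to 0.07 for Tnfaip3, and in KO from −0.55 to 0.41 for Tnf, −0.22 to 0.16 for Tnfaip3 and −0.02 to 0.30 for Birc2. For Ltb at day 6 they ran from −0.33 to 0.47. Of 413 recomputed values of the other genes named, 146 lost their call and 3 turned in sign.

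Over all genes, the calls between the days were 756 in WT and 809 in KO. They became 9 and 74 without the trend, 11 and 1747 with the compared groups alone, and 473 and 398 with the mean of all probe sets. The replicate block gave 463 and 325, and the methods' t-test 0 and 1 (1399 and 2627 unadjusted). When 1 array was left out, the calls ran from 4 to 890 in WT and from 3 to 1368 in KO. The count in KO was 523 without the filter. Tnf failed the 60th percentile filter.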
